A study of Rattus norvegicus with 54 samples.

Results

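The genes described here are the core of the NRF2 antioxidant pathway, followed through the perinatal development of rat liver and skeletal muscle. The 9 genes were chosen by name: the transcription factor itself (*Nfe2l2*, which encodes NRF2), its inhibitor (*Keap1*) and 7 classical targets (*Gclc*, *Gclm*, *Slc7a11*, *Txnrd1*, *Srxn1*, *Nqo1* and *Hmox1*). Their values came from probe sets that carry a single gene symbol in the platform annotation, which gave 1 probe set for each, so that 9 of 15310 probe sets and 9 of 14506 genes were members. The probe set identifiers are 10846286 for *Nfe2l2*, 10915549 for *Keap1*, 10911747 for *Gclc*, 10818793 for *Gclm*, 10823057 for *Slc7a11*, 10901413 for *Txnrd1*, 10840791 for *Srxn1*, 10810867 for *Nqo1* and 10806122 for *Hmox1*.

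The study followed the adaptation of Wistar rats to life outside the womb with GeneChip Rat Gene ST arrays. Liver was taken from foetuses of gestational days 16, 20 and 22 (F16, F20 and F22), from newborns at postnatal days 1 and 4 (P1 and P4) and, as an adult control, at day 90 (P90), with 4 arrays at each time point and 24 in all. Hind limb skeletal muscle was taken at F16, F18, F20, F22, P1 and P4, with 5 arrays at each and 30 in all. All groups were untreated Wistar animals on standard chow, the foetuses were obtained by Caesarean section, and no source used here says which animals were littermates, so that p-values measure the spread between these samples only. Values are log2 signals after robust multi-array average (RMA), so that a difference of 1 is a 2-fold change, and a change was called where limma's p, adjusted by the Benjamini-Hochberg method over all 15310 probe sets, did not exceed 0.05. The distributions of values differed between liver and muscle arrays, so changes but never levels were compared between the tissues.

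NRF2 is a transcription factor that pairs with small MAF proteins on antioxidant response elements, and BACH1 competes for the same elements. KEAP1 is the adaptor of a CUL3 ubiquitin ligase that marks NRF2 for degradation, and oxidants or electrophiles that modify KEAP1 let NRF2 accumulate, so that the control of the pathway lies largely in the protein and not in the *Nfe2l2* mRNA. Its targets supply cystine and make glutathione, keep thioredoxin and peroxiredoxin reduced, reduce quinones and break down haem. In liver the pathway is known for defence against electrophiles and drugs, and birth brings a sharp rise in oxygen pressure to every organ.

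The antioxidant response element holds the core TGACNNNGC, and the related TGAGNNNGC, which differs from it in 1 base, is also bound by NRF2. Both were searched on both strands in RefSeq promoter windows of build GRCr8, from 250 bases before to 50 bases after a gene's start. Of the 9 members 8 had such a window (*Txnrd1* had windows for 2 starts), and none was given for *Hmox1*. TGACNNNGC was found in windows of 3 members (*Gclm*, *Nfe2l2* and the second start of *Txnrd1*), against 12.1% of all 33469 windows, and TGAGNNNGC was found 3 times in the window of *Srxn1*, against 17.2% of all windows. Either core occurred in 27.1% of all windows. *Keap1*, *Gclc*, *Nqo1*, *Slc7a11* and the first start of *Txnrd1* held neither core in these windows, and NRF2 elements further from the start were not searched. The match of *Nfe2l2* began at base 39 of the transcript, counted from 1 at its start.

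Below, 4 windows are printed from 250 bases before to 20 bases after the start, 5′ to 3′ along the gene, with the cores in capitals, a core on the opposite strand appearing as its reverse complement: those with a core before the start, and that of *Slc7a11*, the member with the widest changes. That of *Gclm* (chr2:213031885-213032154, plus strand) holds a core on the opposite strand 172 bases before the start. In *Srxn1* (chr3:161064562-161064831, plus strand) the cores begin 118, 17 and 5 bases before the start, the last of them on the strand of the gene. For *Txnrd1* (chr7:22755885-22756154, minus strand) the core lies on the opposite strand 78 bases before the second start. The window of *Slc7a11* (chr2:136668245-136668514, minus strand) shows no core.
Gclm: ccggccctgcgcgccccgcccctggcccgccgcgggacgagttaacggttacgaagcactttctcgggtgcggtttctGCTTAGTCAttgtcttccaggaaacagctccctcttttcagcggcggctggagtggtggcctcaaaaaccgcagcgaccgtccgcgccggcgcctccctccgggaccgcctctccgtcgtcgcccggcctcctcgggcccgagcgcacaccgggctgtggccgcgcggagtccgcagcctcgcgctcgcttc
Srxn1: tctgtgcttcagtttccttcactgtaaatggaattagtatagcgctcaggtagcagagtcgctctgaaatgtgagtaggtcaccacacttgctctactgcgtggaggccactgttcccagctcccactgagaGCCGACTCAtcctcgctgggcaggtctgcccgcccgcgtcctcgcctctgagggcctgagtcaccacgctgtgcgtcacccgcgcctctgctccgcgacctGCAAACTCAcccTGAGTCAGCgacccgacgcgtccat
Txnrd1: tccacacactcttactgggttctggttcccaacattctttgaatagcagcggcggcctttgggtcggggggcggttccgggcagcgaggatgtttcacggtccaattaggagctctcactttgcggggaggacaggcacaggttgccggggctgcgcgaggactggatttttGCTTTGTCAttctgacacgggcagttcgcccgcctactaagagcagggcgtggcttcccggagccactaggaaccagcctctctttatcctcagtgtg
Slc7a11: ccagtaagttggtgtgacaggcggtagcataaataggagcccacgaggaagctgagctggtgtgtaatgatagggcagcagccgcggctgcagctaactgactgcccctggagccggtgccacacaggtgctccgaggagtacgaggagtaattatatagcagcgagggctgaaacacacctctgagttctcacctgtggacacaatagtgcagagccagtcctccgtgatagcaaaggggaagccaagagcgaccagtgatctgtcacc

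The defining markers of each tissue were high under its label, and markers of other tissues were raised on some arrays. *Alb* was between 13.68 and 13.90 on every liver array, and the mean of *Ckm* in muscle was 9.07 at F16 and 13.46 at P4. *Alb* lay between 7.02 and 12.21 on single muscle arrays, and *Ckm* in liver lay at 8.21 or below on all arrays but F20 replicate 1 (8.92), F22 replicate 1 (10.16) and F22 replicate 4 (8.62). *Krt1*, a keratin of the epidermis, was at 8.96 in F16 muscle and between 12.75 and 13.65 at the later muscle time points. The mean correlation of an array with its replicates was lowest for liver P1 replicate 1 (0.983) and muscle F22 replicate 5 (0.988). Between F16 and P4 markers of blood cells and of other cell types moved in both tissues. In liver 9 of 9 measured erythroid markers fell (of 12 listed), while 11 of 11 macrophage markers (of 12) and 10 of 10 granulocyte markers rose. In muscle 9 of 9 erythroid markers, 9 of 11 macrophage markers and 9 of 10 granulocyte markers rose. There 9 of 10 myofibre markers (median 2.96), 4 of 4 measured keratinocyte markers (median 2.77) and 8 of 8 adipocyte markers (median 2.06) also rose. Of 8 fibroblast markers in muscle 6 rose and 2 fell (median 1.09). In liver 11 of 11 hepatocyte markers and 7 of 7 endothelial markers rose, and 7 of 8 fibroblast markers fell. In such bulk samples fewer cells of a type and less RNA per cell cannot be told apart, and the part of these cells in the results below was not tested.

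The 9 genes did not move as a group. In liver *Slc7a11*, the cystine importer, stood out with a rise at F22 alone, *Nqo1* was higher at P4 than at F16 and higher again in the adult, *Hmox1* rose before birth, and *Gclm*, *Srxn1*, *Txnrd1* and *Keap1* fell between F16 and P4. In muscle *Nfe2l2*, *Gclc*, *Gclm*, *Hmox1* and *Nqo1* rose over the same period, and *Slc7a11* fell 9.71-fold. Between F16 and P4 the change differed between the 2 tissues for 8 of the 9 members. Of these, 2 had the more positive change in liver, as 24.9% of all probe sets did, and 6 the more negative one, as 33% did.

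**Figure D1:**
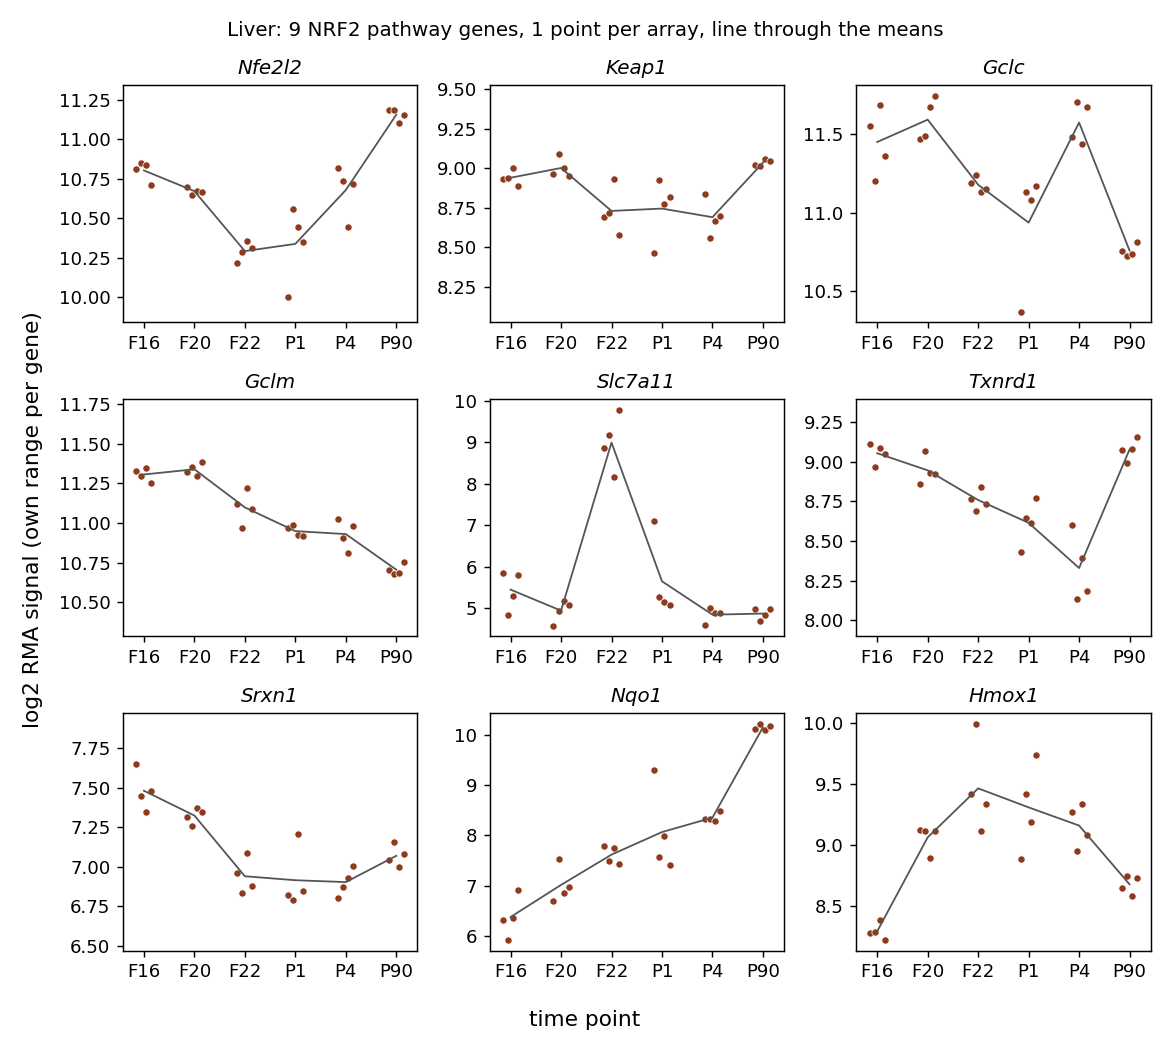
log2 RMA signal of the 9 genes in liver by time point (x axis), 1 point per array (4 per time point) and a line through the means, each panel with its own y range. *Slc7a11* is high at F22 only, *Nqo1* reaches its highest values at P90, and *Gclm* falls to its lowest values at P90.

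**Figure D2:**
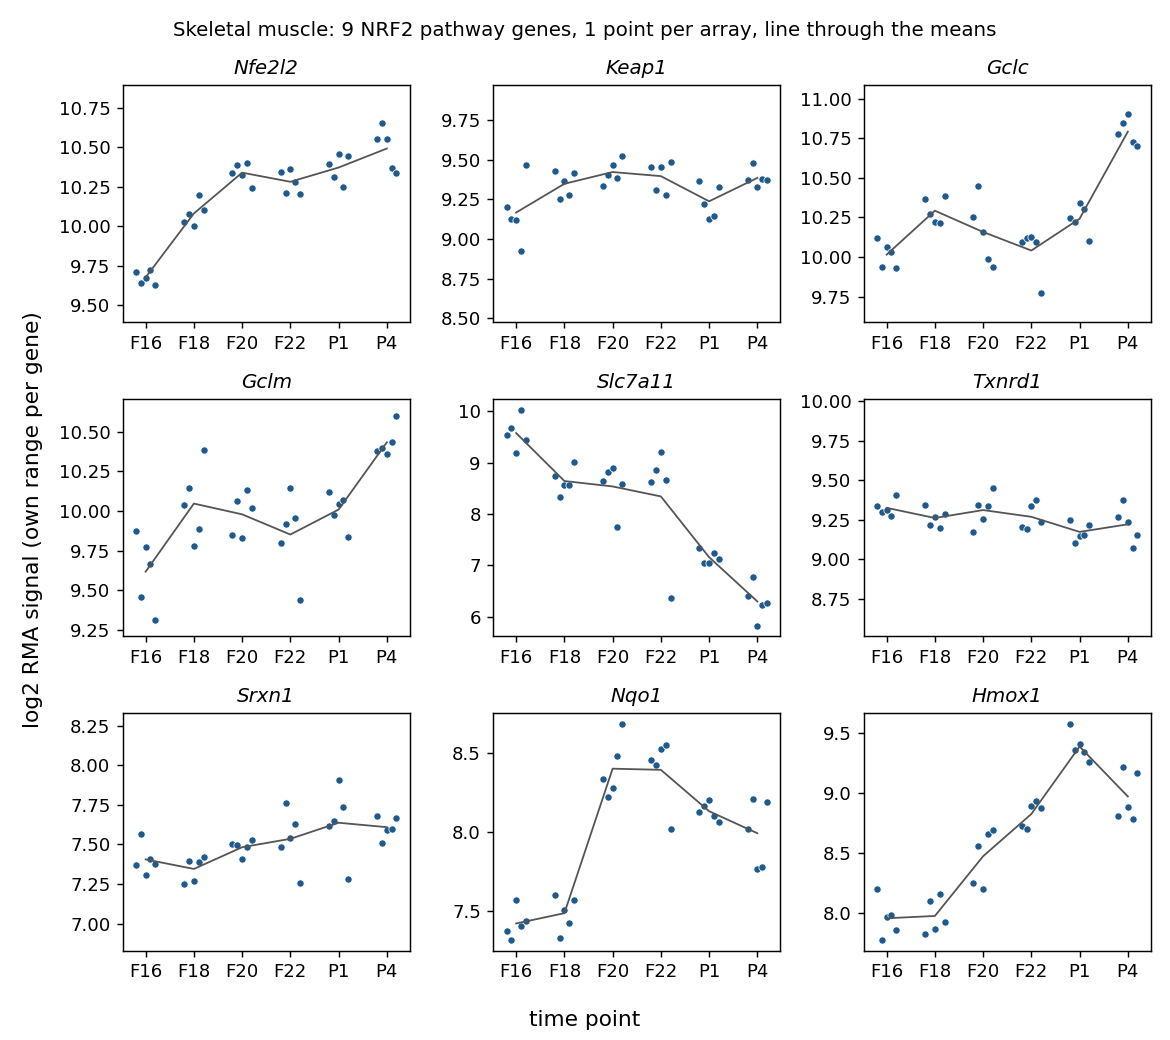
log2 RMA signal of the 9 genes in skeletal muscle by time point (x axis), 1 point per array (5 per time point) and a line through the means, each panel with its own y range. *Nfe2l2* is lowest at F16, *Slc7a11* falls to P4, and *Hmox1* is highest at P1.

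Counted over the time points of a tissue, all 9 members differed in liver, where 84.3% of all probe sets did, and 8 of 9 differed in muscle (not *Txnrd1*), where 75% did. Neither count stands out from these shares. Between neighbouring time points of liver, 1 member was higher at F20 than at F16 (*Hmox1*, 9.22% of all probe sets) and 0 were lower (13.2%). By limma 2 were higher at an unadjusted p of at most 0.05, and 0 were lower. At F22 against F20, 2 members were higher (15.3%) and 5 lower (21.6%), the largest number of calls between neighbouring times in liver beside that of P90 against P4. At P1 against F22, 0 were higher (14.8%), also at an unadjusted p, and 2 lower (21.9%). At P4 against P1, 2 were higher (4.87%) and 1 lower (6.1%). At P90 against P4, 4 were higher (28.8%) and 3 lower (27.1%). Over the whole series of P4 against F16, 2 were higher (23.1%) and 4 lower (35%), with a median member change of −0.25, against −0.03 over all probe sets.

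In muscle, 4 members were higher at F18 than at F16 (14.1% of all probe sets) and 1 lower (19.3%). At F20 against F18, 3 were higher (14.6%) and 0 lower (15.9%), and at F22 against F20, 1 was higher (6.02%) and 0 lower (13.8%). At an unadjusted p of at most 0.05 in limma, the members lower in these 2 comparisons were also 0. At P1 against F22, 1 was higher (9.5%) and 1 lower (8.82%). At P4 against P1, 2 were higher (19.2%) and 2 lower (14.7%). At P4 against F16, 7 of 9 were higher (26.7%) and 1 lower (35%), with a median member change of 0.57, against −0.04 over all probe sets.

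*Nfe2l2*, the gene of NRF2 itself, dipped around birth in liver and climbed in muscle. In liver it averaged 10.80 ± 0.06 at F16, 10.67 ± 0.02 at F20, 10.29 ± 0.06 at F22, 10.34 ± 0.24 at P1, 10.68 ± 0.16 at P4 and 11.15 ± 0.04 at P90 (SD, n = 4 each). The F22 arrays read 10.22, 10.29, 10.35 and 10.31, against 10.70, 10.65, 10.67 and 10.67 at F20. All F22 arrays lay below all F20 arrays, and the change was −0.38 (SE 0.09, adjusted p = 0.0011). P4 was above P1 by 0.34 (SE 0.09, adjusted p = 0.012), though with overlapping arrays, and the call was lost when arrays were weighted by their quality (adjusted p = 0.059). The P90 arrays, at 11.18, 11.18, 11.10 and 11.15, all lay above those of P4, at 10.82, 10.74, 10.45 and 10.71, by 0.48 (SE 0.09, adjusted p = 6e-05). Ordered by level, P90 was highest and F22 lowest, F16 and P4, P4 and F20, and P1 and F22 overlapped, and P4 against F16 was not called (−0.12, SE 0.09, adjusted p = 0.23).

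In muscle *Nfe2l2* averaged 9.68 ± 0.04 at F16, 10.08 ± 0.08 at F18, 10.34 ± 0.06 at F20, 10.28 ± 0.07 at F22, 10.37 ± 0.09 at P1 and 10.49 ± 0.14 at P4 (SD, n = 5 each). The F18 arrays read 10.03, 10.08, 9.999, 10.20 and 10.10, against 9.71, 9.64, 9.67, 9.72 and 9.63 at F16, without overlap (0.40, SE 0.06, adjusted p = 2.5e-06). At F20 all arrays, at 10.34, 10.39, 10.33, 10.40 and 10.24, lay above those of F18 (0.26, SE 0.06, adjusted p = 0.00078). From F20 on neighbouring levels overlapped and no step was called, though P4 against P1 passed without P4 replicate 4 (0.15, adjusted p = 0.048) or 5 (0.16, adjusted p = 0.033). At P4 the arrays read 10.55, 10.65, 10.55, 10.37 and 10.33, which put P4 above F16 by 0.81 (SE 0.06, 1.76-fold, adjusted p = 3.1e-13).

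*Keap1*, the inhibitor, changed least of the liver members. Its liver means were 8.94 ± 0.05 at F16, 9.001 ± 0.06 at F20, 8.73 ± 0.15 at F22, 8.74 ± 0.20 at P1, 8.69 ± 0.12 at P4 and 9.03 ± 0.02 at P90 (SD, n = 4 each). At F22 the arrays read 8.69, 8.71, 8.93 and 8.58, just below the 8.96, 9.09, 9.003 and 8.95 of F20 (−0.27, SE 0.08, adjusted p = 0.011). P90 lay above P4 by 0.34 (SE 0.08, adjusted p = 0.0011), and P4 lay below F16 (−0.25, SE 0.08, adjusted p = 0.012). Without liver F22 replicate 4 the first of these calls was lost (−0.22, adjusted p = 0.052), without P4 replicate 2 the last (−0.20, adjusted p = 0.051), as it was after a further quantile normalisation (−0.13, adjusted p = 0.16). In muscle *Keap1* averaged 9.17 ± 0.20 at F16 and 9.24 to 9.42 later, and P4 was above F16 by 0.22 (SE 0.07, adjusted p = 0.0079) with overlapping arrays, a call lost on centring each array on its median (0.16, adjusted p = 0.053). The higher level at F18 than at F16 (0.18, SE 0.07, adjusted p = 0.047) was lost on leaving out any 1 of 15 of the 30 arrays: F16 replicates 1 to 4, F18 replicates 1, 3 and 5, F20 replicates 2 and 3, F22 replicates 1 and 3, P1 replicate 2 and P4 replicates 1, 4 and 5 (adjusted p between 0.0503 and 0.195), and on centring each array (0.14, adjusted p = 0.13).

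Around these 2 regulators, 11 partners and turnover factors were measured. In liver 2 of them rose and 7 fell between F16 and P4 (median −0.43), where 23.1% and 35% of all probe sets did, the largest changes being those of *Btrc*, a subunit of the ligase that acts on NRF2 after phosphorylation (−1.11, SE 0.10, adjusted p = 8.9e-10), *Bach1*, the repressor that competes for the elements (−0.89, SE 0.08, adjusted p = 1.4e-09), *Sqstm1*, the p62 adaptor that sequesters KEAP1 (0.89, SE 0.06, adjusted p = 1.5e-11), and *Mafk*, a small MAF partner (−0.51, SE 0.11, adjusted p = 0.00025). In muscle 4 rose and 5 fell (median −0.06), where 26.7% and 35% of all probe sets did, and the same shares apply to the other lists below. Here *Mafk* rose (0.98, SE 0.06, adjusted p = 8.6e-15), as did *Nfe2l1*, the paralogue of *Nfe2l2* (0.61, SE 0.07, adjusted p = 4e-09), *Sqstm1* (0.34, SE 0.04, adjusted p = 8.7e-08) and *Mafg* (0.31). *Bach1* fell by 0.17 on the log2 scale in muscle (SE 0.06, adjusted p = 0.026).

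*Slc7a11* encodes the light chain of the cystine and glutamate exchanger that supplies cysteine for glutathione. In liver it averaged 5.45 ± 0.48 at F16, 4.94 ± 0.26 at F20, 8.99 ± 0.68 at F22, 5.65 ± 0.97 at P1, 4.84 ± 0.18 at P4 and 4.87 ± 0.14 at P90 (SD, n = 4 each), and its mean over the liver arrays lay at percentile 16.0 of all probe sets. The 4 arrays of F22 read 8.85, 9.18, 8.15 and 9.78, against 4.58, 4.94, 5.16 and 5.09 at F20. Every F22 array lay above every other liver array of the gene, the rise was 4.05 (SE 0.35, 16.5-fold, adjusted p = 6.3e-09), and it held rank 10 from the highest of all 15310 changes between these times. At P1 the arrays read 7.11, 5.27, 5.15 and 5.07. All lay below those of F22, replicate 1 stood above the other three, and the level at P1 was 10.1-fold lower than at F22 (−3.34, SE 0.35, adjusted p = 6.6e-08), the change of rank 2 from the lowest of all. At P4 the values were 4.60, 5.01, 4.89 and 4.89, at P90 4.98, 4.69, 4.85 and 4.97, and at F16 5.85, 4.84, 5.30 and 5.81, and the contrasts tested among F16, F20, P4 and P90 were not called. Without P1 replicate 1, which enters this contrast only through the spread, P4 against F16 passed (−0.60, adjusted p = 0.036).

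Leaving out 1 liver array at a time gave a change of *Slc7a11* at F22 against F20 between 3.79 (without F22 replicate 4) and 4.33 (without F22 replicate 3), and without P1 replicate 1 the fall at P1 against F22 was −3.83 (SE 0.26, adjusted p = 1.1e-10). *Ckm* was raised on F22 replicates 1 and 4, at 10.16 and 8.62, while replicates 2 and 3, at 7.57 and 7.74, carried *Slc7a11* at 9.18 and 8.15. Granulocyte markers rose between F20 and F22 (10 of 10, median change 1.49), and so did 11 of 11 macrophage markers (median 0.75). The mean granulocyte level lay between 9.82 and 10.48 on the P1 arrays, against 9.81 to 10.34 on the F22 arrays, and that of macrophages between 9.11 and 9.32, against 9.34 to 9.54. The part of these cells and of muscle tissue in the *Slc7a11* peak was not tested. *Slc3a2*, which encodes the heavy chain of the same exchanger, was not called at F22 against F20 (0.07, SE 0.07, adjusted p = 0.48) and fell at P1 against F22 (−0.54, SE 0.07, adjusted p = 1.2e-06).

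In muscle *Slc7a11* fell from the earliest stage on. The arrays read 9.54, 9.68, 9.18, 10.02 and 9.44 at F16, 8.74, 8.32, 8.56, 8.57 and 9.003 at F18, 8.65, 8.81, 8.89, 7.74 and 8.58 at F20, and 8.62, 8.85, 9.20, 8.66 and 6.37 at F22. After birth they read 7.34, 7.04, 7.04, 7.24 and 7.12 at P1, and 6.39, 6.77, 5.82, 6.23 and 6.26 at P4. All F16 arrays lay above those of F18, F18 to F22 overlapped, replicate 5 of F22 lay below all P1 arrays, and all P4 arrays lay below those of P1. P4 was 9.71-fold below F16 (−3.28, SE 0.32, adjusted p = 3.9e-10), the change of rank 7 from the lowest of all probe sets. The steps called were F18 against F16 (−0.93, SE 0.32, adjusted p = 0.024), P1 against F22 (−1.18, SE 0.32, adjusted p = 0.0089) and P4 against P1 (−0.86, SE 0.32, adjusted p = 0.037). Without F22 replicate 5 the second was −1.68 (adjusted p = 4.8e-07). The first was lost without F16 replicate 4 (−0.82, adjusted p = 0.070) or F18 replicate 2 (−0.85, adjusted p = 0.059), and the last without any of P1 replicates 1, 2, 4 and 5 or P4 replicates 1, 3, 4 and 5 (adjusted p up to 0.0928).

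The genes whose values over all arrays of a tissue were most like *Slc7a11* were found by Pearson correlation, as a description, since arrays share their time points. In liver (24 arrays) these were *Cyp27b1* (0.87), the hydroxylase that activates vitamin D, *Adm2* (0.87), which encodes a peptide hormone of the adrenomedullin family, and *St8sia4* (0.85), a polysialyltransferase. Their own rises at F22 were smaller: *Adm2* averaged 7.68 at F22, against 6.75 at F20, and *Cyp27b1* 6.74 at F22, against 6.50 at F20. In muscle (30 arrays) they were *Acat2* (0.96), a thiolase of acetyl-CoA metabolism, *Cpsf3* (0.95), the endonuclease of mRNA 3′ end processing, and *Kif20a* (0.94), a kinesin of cell division. Of the 10 listed cell cycle markers, 8 of 8 measured fell in muscle between F16 and P4 (median −0.76). In liver 8 of 8 also fell over that period (median −1.41), where *Slc7a11* was not called. At F22 against F20 in liver, where *Slc7a11* rose, 8 of 8 fell too (median −0.52). The part of dividing cells in the *Slc7a11* values was not tested.

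**Figure D3:**
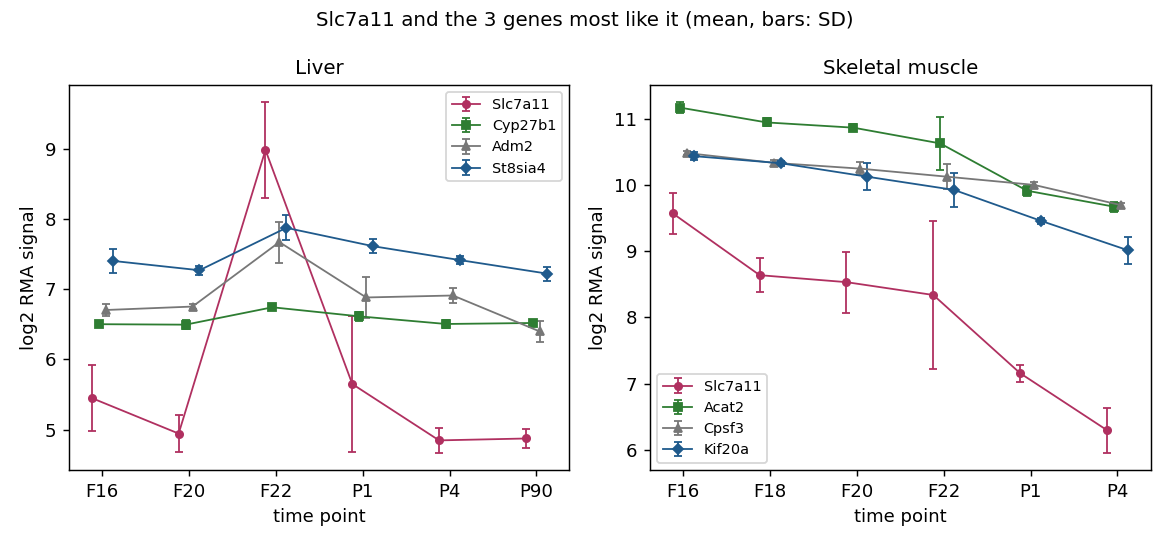
Mean log2 RMA signal (y axis; bars are the SD) of *Slc7a11* and the 3 genes most like it by time point (x axis), in liver (left, 4 arrays per time point) and skeletal muscle (right, 5 per time point); signals of different probe sets are not comparable in level. *Slc7a11* averages 8.99 in F22 liver and lies at 5.65 or below at every other liver time point.

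*Gclc* and *Gclm*, the catalytic and modifier subunits of the enzyme that makes the first step of glutathione synthesis, both rose in muscle by P4, while in liver *Gclm* was lower at P4 than at F16 and *Gclc* was not called. In muscle *Gclc* read 10.78, 10.84, 10.90, 10.73 and 10.70 at P4, against 10.24, 10.22, 10.34, 10.30 and 10.10 at P1 and 10.12, 9.94, 10.06, 10.03 and 9.93 at F16. The P4 arrays lay above all others, by 0.55 over P1 (SE 0.08, adjusted p = 3.2e-06) and by 0.78 over F16 (SE 0.08, 1.71-fold, adjusted p = 6.9e-10). *Gclm* read 10.38, 10.40, 10.36, 10.44 and 10.60 at P4, against 10.12, 9.97, 10.04, 10.07 and 9.84 at P1 and 9.88, 9.45, 9.77, 9.67 and 9.31 at F16. P4 did not overlap with either, and was higher than P1 by 0.42 (SE 0.11, adjusted p = 0.0045) and than F16 by 0.82 (SE 0.11, 1.76-fold, adjusted p = 3.5e-07). An earlier step at F18 against F16 was called for both (0.28, adjusted p = 0.0063, for *Gclc*, and 0.43, adjusted p = 0.0041, for *Gclm*). From F18 to P1 neighbouring time points of each overlapped, though all F18 arrays of *Gclc* lay above all its F22 arrays. For *Gclc*, F20 against F18 passed without F20 replicate 2 (−0.21, adjusted p = 0.030). P1 against F22 (0.20, adjusted p = 0.073) passed without F20 replicate 2, which enters it only through the spread (adjusted p = 0.041), or without P1 replicate 5 (0.24, adjusted p = 0.047). Over the 30 muscle arrays the correlation of *Gclc* and *Gclm* was 0.82, the highest of the 36 pairs of members there, and over the 24 liver arrays it was 0.63. Between P1 and P4 muscle 8 of 9 erythroid markers (median 1.5) and 9 of 10 granulocyte markers (median 1.42) also rose and 6 of 7 endothelial markers fell (median −0.28), and their part in these changes was not tested.

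In liver *Gclm* was 11.31 ± 0.04 at F16, 11.34 ± 0.04 at F20, 11.10 ± 0.11 at F22, 10.95 ± 0.03 at P1, 10.93 ± 0.10 at P4 and 10.70 ± 0.03 at P90 (SD, n = 4 each). Its F22 arrays, at 11.12, 10.97, 11.22 and 11.09, lay below those of F20, at 11.32, 11.35, 11.30 and 11.39 (−0.24, SE 0.05, adjusted p = 0.00097), and its P90 arrays, at 10.71, 10.68, 10.69 and 10.75, below those of P4, at 11.03, 10.90, 10.81 and 10.98 (−0.22, SE 0.05, adjusted p = 0.0012). P4 lay below F16 on every array (−0.38, SE 0.05, adjusted p = 1.9e-06). The step at P1 against F22 (−0.15, SE 0.05, adjusted p = 0.033) was lost without F22 replicate 1, 3 or 4 or P1 replicate 3 or 4 (adjusted p between 0.0508 and 0.144) and after a further quantile normalisation (−0.09, adjusted p = 0.18).

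*Gclc* in liver went down around birth and came back at P4. It averaged 11.45 ± 0.21 at F16, 11.59 ± 0.14 at F20, 11.18 ± 0.05 at F22, 10.94 ± 0.38 at P1, 11.57 ± 0.14 at P4 and 10.76 ± 0.04 at P90 (SD, n = 4 each). F22 lay below F20 without overlap (−0.41, SE 0.13, adjusted p = 0.014). At P4 the arrays read 11.48, 11.70, 11.44 and 11.67, against 10.37, 11.13, 11.08 and 11.17 at P1, where replicate 1 stood far below the others, and P4 was higher by 0.64 (SE 0.13, adjusted p = 0.0023). Without P1 replicate 1 this rise was 0.45, and its call held on leaving out any single liver array (adjusted p up to 0.011). The adult arrays, at 10.76, 10.72, 10.74 and 10.81, lay below all P4 arrays (−0.81, SE 0.13, adjusted p = 1.2e-05), while P4 against F16 was not called (0.12, SE 0.13, adjusted p = 0.45).

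Among 12 further genes of glutathione synthesis and redox, liver had 3 that rose and 7 that fell at P4 against F16 (median −0.29), and muscle had 7 that rose and 2 that fell (median 0.37). In liver the largest changes were those of *Glrx*, glutaredoxin (1.13, SE 0.14, adjusted p = 2.2e-07), *Gpx8*, a peroxidase of the endoplasmic reticulum (−0.97, SE 0.16, adjusted p = 1.5e-05), *Ggt1*, which splits extracellular glutathione (−0.54, SE 0.12, adjusted p = 0.00048), and *Gpx3*, the plasma glutathione peroxidase (−0.44, SE 0.16, adjusted p = 0.023). In muscle *Gpx3* rose most (1.74, SE 0.20, adjusted p = 1e-08), followed by *Gpx7* (0.68, SE 0.08, adjusted p = 1.4e-08), while *Gss*, the second enzyme of the synthesis, fell by 0.63 (SE 0.06, adjusted p = 5.4e-11). *Glrx* in muscle was 0.74 higher without passing the test (SE 0.32, adjusted p = 0.051).

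*Txnrd1*, the cytosolic thioredoxin reductase, declined in liver until P4 and stood high again in the adult. It averaged 9.05 ± 0.06 at F16, 8.95 ± 0.09 at F20, 8.76 ± 0.06 at F22, 8.62 ± 0.14 at P1, 8.33 ± 0.21 at P4 and 9.08 ± 0.07 at P90 (SD, n = 4 each). The P4 arrays read 8.60, 8.13, 8.40 and 8.19, against 9.11, 8.97, 9.09 and 9.05 at F16, without overlap (−0.73, SE 0.08, adjusted p = 7e-08). At P90 they read 9.08, 8.995, 9.08 and 9.16, all above P4 (0.75, SE 0.08, 1.68-fold, adjusted p = 6.7e-08). The step of F22 against F20 (−0.19, SE 0.08, adjusted p = 0.087) passed without P4 replicate 1, which enters only through the spread (adjusted p = 0.040), and that of P4 against P1 (−0.29, SE 0.08, adjusted p = 0.029) was lost without P1 replicate 2, 3 or 4 or P4 replicate 2 or 4 (adjusted p between 0.05002 and 0.122). In muscle *Txnrd1* was the steadiest member, with means between 9.17 and 9.32, all neighbouring levels overlapping and no difference called over the time points (F = 2.15, adjusted p = 0.11). P4 against F16 passed without P4 replicate 2 (−0.14, adjusted p = 0.024).

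*Srxn1*, sulfiredoxin, which restores overoxidised peroxiredoxins, also fell in liver. Its arrays read 7.65, 7.45, 7.35 and 7.48 at F16, 7.32, 7.26, 7.37 and 7.35 at F20, 6.96, 6.84, 7.09 and 6.88 at F22, 6.82, 6.79, 7.21 and 6.84 at P1, 6.80, 6.88, 6.93 and 7.01 at P4, and 7.04, 7.16, 6.998 and 7.08 at P90. The F22 arrays lay below all F20 arrays (−0.38, SE 0.08, adjusted p = 0.00057), the levels from F22 to P4 overlapped, and P4 was below F16 on every array (−0.58, SE 0.08, adjusted p = 1.5e-06). P90 against P4 was not called (0.17, SE 0.08, adjusted p = 0.088) but passed without P1 replicate 3, which enters only through the spread (adjusted p = 0.036). In muscle *Srxn1* was 0.20 higher at P4 than at F16 (SE 0.08, adjusted p = 0.035) with overlapping arrays. That call was lost without F16 replicate 1, 3, 4 or 5 or P4 replicate 1 or 5 (adjusted p between 0.0525 and 0.0848) and on centring each array on its median (0.15, adjusted p = 0.13).

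Erythroid markers also changed in liver between these times. Their mean over the 9 markers lay between 11.49 and 11.76 on the F22 arrays, against 11.98 to 12.10 on the F20 arrays, and between 7.04 and 7.23 at P90, against 11.05 to 11.29 at P4. *Gclm*, *Gclc*, *Srxn1*, *Keap1* and *Nfe2l2* were lower at F22 than at F20, as 7 of the 9 erythroid markers were (median −0.47). At P1 against F22, 9 of 9 erythroid markers fell (median −0.66). Of the same genes and *Txnrd1*, only *Gclm* was called lower in that step. At P4 against P1, 4 of 9 erythroid markers rose and 0 fell (median 0.17), while *Nfe2l2* and *Gclc* rose and *Txnrd1* fell. At P90 against P4 the erythroid markers all fell (median −3.49), whereas *Txnrd1*, *Keap1* and *Nfe2l2* rose and *Gclm* and *Gclc* fell. The part of erythroid cells in these changes was not tested.

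The list of other thioredoxin and peroxiredoxin genes held 10, of which 5 were called higher and 4 lower in P4 than in F16 liver (median 0.12), and 3 higher and 5 lower in P4 than in F16 muscle (median −0.17). The mitochondrial peroxiredoxin *Prdx3* (−1.15, SE 0.05, adjusted p = 6.2e-15) and *Prdx2*, abundant in red cells (−0.95, SE 0.08, adjusted p = 4.3e-10), fell in liver, while *Prdx5* (0.91, SE 0.07, adjusted p = 1.3e-10) and *Txnip*, which binds thioredoxin (0.82, SE 0.20, adjusted p = 0.00088), rose. *Txnip* also rose in muscle (0.80, SE 0.07, adjusted p = 1.2e-10), where *Prdx6* (−0.48, SE 0.07, adjusted p = 5.3e-07) and *Prdx4* (−0.30, SE 0.06, adjusted p = 2.5e-05) fell and *Txn2*, the mitochondrial thioredoxin, rose (0.30, SE 0.08, adjusted p = 0.0019). Of the superoxide dismutases and catalase, 4 of 4 rose in muscle, with *Sod3*, the secreted enzyme, in front (3.16, SE 0.18, adjusted p = 4.2e-15), and 2 rose and 1 fell in liver, where *Sod3* (0.98, SE 0.11, adjusted p = 6.4e-08) and *Cat* (0.63) were higher and *Sod1* was lower (−0.23, SE 0.07, adjusted p = 0.0039).

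*Nqo1*, the quinone reductase that serves as the usual readout of NRF2 in rodent liver, had a higher liver mean at each later time point. The means were 6.37 ± 0.41 at F16, 7.01 ± 0.37 at F20, 7.62 ± 0.18 at F22, 8.07 ± 0.86 at P1, 8.35 ± 0.09 at P4 and 10.15 ± 0.06 at P90 (SD, n = 4 each), a range of 3.77 or 13.7-fold. At P4 the arrays read 8.32, 8.32, 8.29 and 8.48, against 6.32, 5.92, 6.35 and 6.91 at F16, without overlap (1.98, SE 0.27, 3.94-fold, adjusted p = 1e-06). At P90 they read 10.11, 10.22, 10.09 and 10.18, all above P4 (1.80, SE 0.27, 3.47-fold, adjusted p = 6.3e-06). None of the single steps up to P4 passed the test. Of the P1 arrays, replicate 1 read 9.30 and the others 7.57, 7.98 and 7.41. Without that array the steps F20 against F16 (0.64, adjusted p = 0.0078), F22 against F20 (0.60, adjusted p = 0.0068) and P4 against P1 (0.70, adjusted p = 0.013) passed. It enters F20 against F16 and F22 against F20 only through the spread, so the size of these changes was the same with it. F20 against F16 also passed without F16 replicate 4 (0.82, adjusted p = 0.047), and F22 against F20 without F20 replicate 2 (0.78, adjusted p = 0.038).

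Genes most like *Nqo1* over the 24 liver arrays were *Papss2* (0.97), which makes the sulphate donor of conjugation, *Cflar* (0.97), an inhibitor of caspase activation, and *Zbtb20* (0.96), a repressor of *Afp* in liver. *Papss2* averaged 11.73 at P90, against 9.99 at P4, and *Zbtb20* 10.997 at P90, against 9.76 at P4. Among the members the closest liver relation of *Nqo1* was an inverse one with *Gclm* (−0.87).

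In muscle *Nqo1* stepped up once. The F20 arrays read 8.34, 8.22, 8.28, 8.48 and 8.68, against 7.60, 7.32, 7.51, 7.42 and 7.57 at F18, without overlap (0.92, SE 0.10, 1.89-fold, adjusted p = 5e-08). At F22 they read 8.45, 8.42, 8.52, 8.55 and 8.02, at P1 8.12, 8.17, 8.20, 8.10 and 8.06, and at P4 8.02, 8.21, 7.76, 7.78 and 8.19, against 7.37, 7.32, 7.57, 7.40 and 7.44 at F16. Levels from F20 to P4 overlapped between neighbours, and P4 stayed above F16 on every array (0.57, SE 0.10, adjusted p = 7e-06). Between F18 and F20, 9 of 10 measured myofibre markers rose (median 1.11), as did 6 of 11 macrophage markers (median 0.40) and 3 of 4 keratinocyte markers (median 0.61), and their part in this step was not tested. At P1 against F22 the change did not pass the test (−0.26, SE 0.10, adjusted p = 0.058). Without F22 replicate 5, the lowest array of that time point, it was −0.36 (adjusted p = 0.0045). Without F20 replicate 5 or P4 replicate 3, which enter only through the spread, it also passed (adjusted p of 0.042 and 0.049).

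*Hmox1*, the inducible haem oxygenase, which is also abundant in macrophages that clear red cells, rose in both tissues. Its liver arrays read 8.27, 8.29, 8.38 and 8.22 at F16, 9.12, 9.12, 8.89 and 9.12 at F20, 9.42, 9.99, 9.11 and 9.33 at F22, 8.88, 9.42, 9.19 and 9.74 at P1, 9.27, 8.95, 9.33 and 9.08 at P4, and 8.65, 8.75, 8.58 and 8.73 at P90. F16 was the lowest time point, the levels from F20 to P4 overlapped, and P90 lay between F16 and all the others without overlap. F20 was higher than F16 by 0.77 (SE 0.15, 1.71-fold, adjusted p = 0.00067), P4 higher than F16 by 0.87 (SE 0.15, adjusted p = 2.9e-05), and P90 lower than P4 (−0.48, SE 0.15, adjusted p = 0.01). The step of F22 against F20 (0.40, SE 0.15, adjusted p = 0.042) was lost without any 1 of the F20 arrays or without F22 replicate 1 or 2, and without F22 replicate 2, the highest array, it was 0.23 (adjusted p = 0.23). It was also lost on centring each array (0.37, adjusted p = 0.062).

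In muscle *Hmox1* climbed to a maximum on the first day of life. The arrays read 8.20, 7.78, 7.97, 7.99 and 7.86 at F16, 7.83, 8.10, 7.87, 8.16 and 7.93 at F18, 8.25, 8.56, 8.21, 8.66 and 8.69 at F20, and 8.73, 8.70, 8.90, 8.93 and 8.88 at F22. At P1 they read 9.58, 9.36, 9.41, 9.34 and 9.26, above every other muscle array, and at P4 8.81, 9.22, 8.88, 8.79 and 9.17. The called steps were F20 against F18 (0.50, SE 0.10, adjusted p = 0.00037), F22 against F20 (0.35, SE 0.10, adjusted p = 0.014), P1 against F22 (0.56, SE 0.10, 1.48-fold, adjusted p = 0.00018) and P4 against P1 (−0.42, SE 0.10, adjusted p = 0.0018), and P4 was 2.02-fold above F16 (1.02, SE 0.10, adjusted p = 5.8e-10). The step of F22 against F20 was lost without F20 replicate 3 (0.28, adjusted p = 0.057).

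*Cd163*, the haemoglobin scavenger receptor of macrophages, was the gene most like *Hmox1* over the 30 muscle arrays (0.96), ahead of *Fgl2* (0.95) and *Clic2* (0.95). In muscle *Cd163* was higher at P1 than at F22 (0.63, SE 0.17, adjusted p = 0.0086) and lower at P4 than at P1 (−0.50, SE 0.17, adjusted p = 0.024), the same directions as *Hmox1*. Of the 11 measured macrophage markers 1 rose in the first of these steps (median 0.04), and 2 rose and 3 fell in the second (median −0.03). Of 8 adipocyte markers 7 rose in the first step (median 1.28) and 1 in the second (median 0.10). The mean of the 11 markers in muscle lay between 7.34 and 7.51 on the F16 arrays, 7.93 and 8.37 at F20, 8.28 and 8.46 at F22, 8.42 and 8.51 at P1, and 8.31 and 8.47 at P4. In liver all 11 rose at F20 against F16 (median 1.03) and at F22 against F20 (median 0.75), and *Cd163* was 2.31 higher at F20 than at F16 (SE 0.12, adjusted p = 2.3e-12). At P90 against P4, 2 macrophage markers rose and 5 fell (median −0.16). The part of macrophages and of adipocytes in the *Hmox1* values was not tested.

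**Figure D4:**
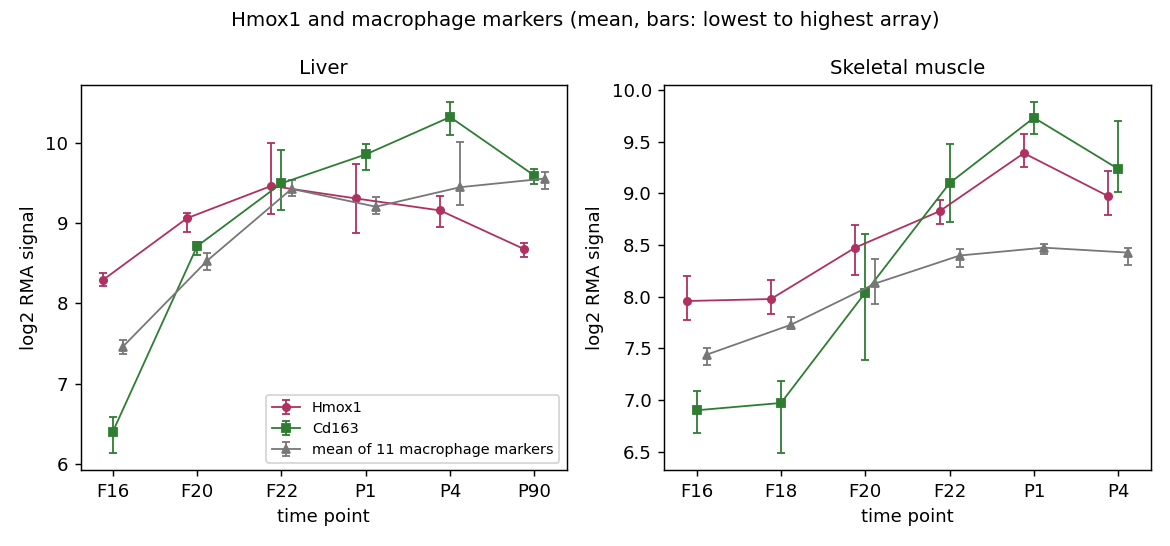
Mean log2 RMA signal (y axis; bars reach from the lowest to the highest array) of *Hmox1*, of *Cd163* and of the mean over 11 macrophage markers by time point (x axis), in liver (left, 4 arrays per time point) and skeletal muscle (right, 5 per time point); signals of different probe sets are not comparable in level. In muscle *Hmox1* and *Cd163* are both highest at P1, with means of 9.39 and 9.73.

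Downstream of haem oxygenase, 6 genes of haem breakdown and iron handling were measured, of which 2 rose and 2 fell in each tissue between F16 and P4. *Blvra* and *Blvrb*, the biliverdin reductases, fell in liver (−1.39, SE 0.11, adjusted p = 2.5e-10, and −1.14, SE 0.13, adjusted p = 8.6e-08), while *Slc40a1*, the iron exporter ferroportin, rose in liver (0.97, SE 0.07, adjusted p = 8.6e-12) and in muscle (1.43, SE 0.12, adjusted p = 4.1e-11). *Blvrb* rose in muscle (1.21, SE 0.15, adjusted p = 5.8e-08). *Hmox2*, the constitutive haem oxygenase, rose in liver (0.33, SE 0.07, adjusted p = 0.00043) and fell in muscle (−0.20, SE 0.06, adjusted p = 0.007).

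A further 15 genes that NRF2 is known to regulate, mostly of conjugation and export, were measured. In liver 9 rose and 4 fell between F16 and P4 (median 0.80), led by *Aox1*, aldehyde oxidase (3.76, SE 0.19, adjusted p = 6.6e-14), *Abcc3*, an exporter of conjugates (2.25, SE 0.09, adjusted p = 6.1e-16), *Mgst1*, microsomal glutathione transferase (2.05, SE 0.05, adjusted p = 5.3e-19), and *Osgin1* (1.96, SE 0.17, adjusted p = 4.5e-10). Over the same time 11 of 11 measured hepatocyte markers rose (median 0.63), and their part in these changes was not tested. In muscle 7 rose and 6 fell, with *Mgst1* highest (2.33, SE 0.23, adjusted p = 5.4e-10) and *Gsta4* (−1.45, SE 0.09, adjusted p = 1.3e-14), *Cbr1* (−1.06, SE 0.08, adjusted p = 3e-12) and *Ephx1* (0.98, SE 0.11, adjusted p = 6.9e-09) next in size. Of 6 listed genes of NADPH supply 4 were measured. Of these, 2 fell in liver (*Taldo1*, −0.92, SE 0.06, adjusted p = 1.1e-11, and *Tkt*, −0.71, SE 0.08, adjusted p = 4.2e-08), whereas in muscle 2 fell and *Me1*, malic enzyme, rose (1.17, SE 0.16, adjusted p = 2.7e-07).

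The difference between the tissues was tested for the change itself, in 1 fit of all 54 arrays. For P4 against F16, liver and muscle differed for 8 of the 9 members: 2 had the more positive change in liver (24.9% of all probe sets) and 6 the more negative one (33%). *Gclm* changed by −0.38 in liver and 0.82 in muscle (difference −1.19, SE 0.14, adjusted p = 3.2e-10), *Nfe2l2* by −0.12 and 0.81 (difference −0.94, SE 0.10, adjusted p = 2e-11), *Srxn1* by −0.58 and 0.20 (difference −0.78, SE 0.12, adjusted p = 2.1e-07) and *Keap1* by −0.25 and 0.22 (difference −0.47, SE 0.11, adjusted p = 0.00022). *Txnrd1*, at −0.73 in liver and −0.10 in muscle, and *Gclc*, at 0.12 in liver and 0.78 in muscle, differed by −0.62 (adjusted p = 2.5e-07) and −0.65 (adjusted p = 0.00016). The differences of opposite sign were those of *Nqo1* (1.41, SE 0.28, adjusted p = 2e-05) and *Slc7a11* (2.67, SE 0.49, adjusted p = 6.8e-06). *Nqo1* changed by 1.98 in liver and 0.57 in muscle. *Slc7a11* did not rise in liver: it changed by −0.60 there, which was not called (adjusted p = 0.15), and by −3.28 in muscle. Its mean over the liver arrays lay at percentile 16.0 of all probe sets, a low level that limits the changes measured there. For *Hmox1* the difference was −0.15 (SE 0.18, adjusted p = 0.51).

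**Figure D5:**
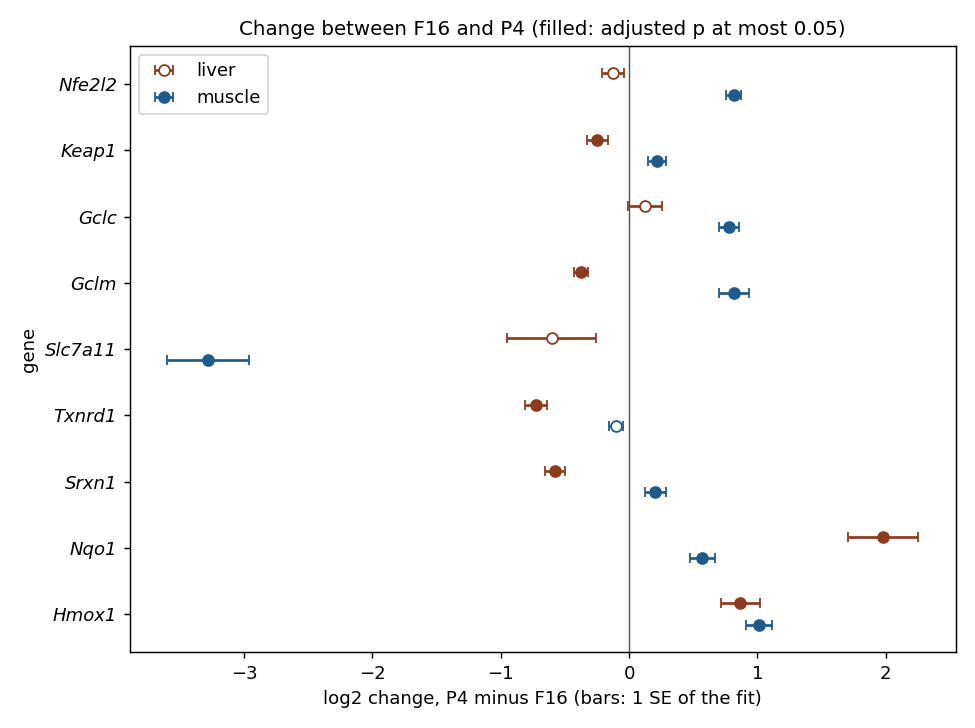
Change between F16 and P4 of each gene on the log2 scale (x axis, P4 minus F16, bars are 1 SE of the limma fit) in liver (upper point of each pair) and skeletal muscle (lower point), filled where the adjusted p was at most 0.05. *Gclm*, *Srxn1* and *Keap1* lie below 0 in liver and above 0 in muscle, and *Hmox1* lies near the same value in both tissues.

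Across birth, at P1 against F22, 4 members differed between the tissues, 1 with the more positive change in liver (12.5% of all probe sets) and 3 with the more negative one (19.5%). *Slc7a11* fell in both tissues and further in liver (−3.34 in liver and −1.18 in muscle, difference −2.16, SE 0.49, adjusted p = 0.0005). *Hmox1* changed by −0.16 in liver and by 0.56 in muscle (difference −0.72, SE 0.18, adjusted p = 0.0016). The differences of *Gclc* (−0.44, SE 0.15, adjusted p = 0.018) and *Nqo1* (0.71, SE 0.28, adjusted p = 0.042) rested on liver P1 replicate 1, without which they were −0.25 (adjusted p = 0.11) and 0.30 (adjusted p = 0.27), and that of *Nqo1* was also lost without liver F22 replicate 2 or 4, muscle F22 replicates 1, 2, 3 or 4 or muscle P1 replicates 1, 2, 4 or 5 taken 1 at a time (lowest adjusted p 0.0504) and on centring each array (0.67, adjusted p = 0.059). Differences that passed only without 1 array were those of *Keap1* (0.27, adjusted p = 0.038, without liver P1 replicate 1) and *Gclm* (−0.38, adjusted p = 0.029, without muscle F22 replicate 3).

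Among themselves the members were no single block. Of the 36 pairs of members, 6 correlated above 0.5 and 6 below −0.5 over the 24 liver arrays, with 17 pairs positive, and over the 30 muscle arrays 7 were above 0.5 and 4 below −0.5, with 22 positive. In liver the highest value was that of *Keap1* and *Txnrd1* (0.82), and *Nfe2l2* correlated with *Keap1* (0.70) but with *Gclc* hardly (−0.01). There *Nfe2l2* ran opposite to *Slc7a11* (−0.65) and to *Hmox1* (−0.60). In muscle *Nfe2l2* correlated with *Hmox1* (0.74), *Nqo1* (0.69), *Gclm* (0.64) and *Gclc* (0.55), and *Slc7a11* ran opposite to *Hmox1* (−0.72) and *Nfe2l2* (−0.71). These values describe arrays that share time points and normalisation, and no test was made of them.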

How the data were processed

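Total RNA of liver (24 arrays) and hind limb muscle (30 arrays) was measured on Rat Gene ST arrays of the GeneChip series. The deposited values are log2 signals after RMA, made by the authors with Affymetrix Expression Console, which the submitters' processing notes name (separate runs for liver and muscle are inferred from the values, whose distributions differ between tissues, and are not stated in the sources); the sources used here give neither its version nor the probe set definition. Arrays give no counts, so their number limits the precision. Of 29214 probe sets, 15310 had 1 gene symbol in the platform annotation (15279 matched by gene ID, 0 symbols changed), 323 had several and 13581 none. Groups came from the labels. limma 3.58.1 in R 4.3.3 was fitted to each tissue with its 6 groups, and to all 54 arrays for the difference between tissues, with Benjamini-Hochberg adjustment over 15310 probe sets and a threshold of 0.05. The scripts were tested on simulated data. Members and gene lists were chosen with earlier results of these data known. All 9 members are named, with up to 4 genes of each pathway list by size of change and, for the 2 members of each tissue with the widest range, the 3 most correlated genes. Alternatives covered centring, a further quantile normalisation, array weights, a filter on dim probe sets, the replicate block, 5 time points per tissue, the mean of probe sets of a gene, a trended robust prior, unadjusted p, leaving out the arrays that lie apart (liver P1 replicate 1, muscle F16 replicate 5, F20 replicates 4 and 5 and F22 replicate 5) and leaving out each array.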

Additional observations from a re-analysis of the deposited data

Results flagged for a closer look

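Single arrays stood apart from their replicates in 9 of the 108 groups of a gene and a time point, by a gap to the nearest array of more than Dixon's critical share of the range, where chance flags about 1 in 20 groups. In liver these were *Gclc* (0.887) and *Slc7a11* (0.905) on P1 replicate 1, *Srxn1* on P1 replicate 3 (0.872), *Hmox1* on F20 replicate 3 (0.977) and *Nqo1* on P4 replicate 4 (0.845). In muscle they were *Nqo1* (0.758), *Gclc* (0.911) and *Slc7a11* (0.794) on F22 replicate 5, and *Slc7a11* on F20 replicate 4 (0.734). Liver P1 replicate 1 and muscle F22 replicate 5 also had the lowest mean correlation with their replicates, and the cause was not tested.

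The change differed between liver and muscle by the test of the difference itself in 12 of 18 comparisons. Such differences were also frequent over all probe sets. For P4 against F16, 24.9% had the more positive change in liver and 33% the more negative one. For P1 against F22 these shares were 12.5% and 19.5%. For P4 against F16 the differences, liver minus muscle on the log2 scale, were −0.94 for *Nfe2l2*, −0.47 for *Keap1*, −0.65 for *Gclc*, −1.19 for *Gclm*, 2.67 for *Slc7a11*, −0.62 for *Txnrd1*, −0.78 for *Srxn1* and 1.41 for *Nqo1*. For P1 against F22 they were −0.44 for *Gclc*, −2.16 for *Slc7a11*, 0.71 for *Nqo1* and −0.72 for *Hmox1*, of which those of *Gclc* and *Nqo1* were lost without liver P1 replicate 1 (−0.25 and 0.30).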

How the results depend on the processing

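Of the 126 member changes, none of the 61 that were called turned its direction under any alternative run, while 21 that were not called changed sign under at least 1, on leaving out single arrays included. Unadjusted p, the filter on dim probe sets, the fit with 5 time points and the trended robust prior leave the change itself as it was. These could therefore not turn a direction. Leaving out each array kept the call in 3807 of 3888 refits, lost it in 62 and gained it in 19. Many of these refits left out an array of neither compared group. Such an array enters only through the spread, so the change itself could not move, and the share of kept calls is high partly for that reason. Array weights lost 4 calls and gained 9, centring lost 5 and gained 3, and a further quantile normalisation lost 3 and gained 1. The fit with 5 time points lost 5 and gained 0, over the 99 changes it gives. Averaging probe sets of a gene could hardly change a member's call, since each member has 1 probe set, and changed none.

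Of the counts of members called, liver F20 against F16 (1) was 2 with array weights, an unadjusted p or without the arrays that lie apart, and 1 to 2 on leaving out single arrays (2 without F16 replicate 4 or P1 replicate 1). Liver P1 against F22 (2) was 1 with 5 time points, array weights, quantile normalisation or without dim probe sets, and 1 to 2 on leaving out single arrays (1 without F22 replicate 1, 3 or 4 or P1 replicate 3 or 4). Muscle F22 against F20 (1) was 2 with array weights, and 0 to 1 on leaving out single arrays (0 without F20 replicate 3). Muscle P1 against F22 (2) was 4 with array weights and 5 at an unadjusted p. Muscle F18 against F16 (5) was 3 to 5 (3 without F16 replicate 4). The filter on dim probe sets kept 7 members in liver, 5 in muscle and 5 for the tissue difference, so that fewer could be called: 1 for muscle F20 against F18, 0 for F22 against F20, 1 for P1 against F22, 2 for P4 against P1, 4 for P4 against F16 and 4 over all muscle time points, and for liver against muscle 5 for P4 against F16 and 1 for P1 against F22. Centring moved the share of higher calls among all calls of muscle F18 against F16 to 30.7%, against 42.2%.

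Replicate numbers were not used as pairs in the main fit: in 0 of 12 comparisons did all same-numbered arrays deviate together with a correlation over 0.1. This rule cannot exclude a weaker or partial pairing. In muscle P1 against F22 the same-numbered arrays correlated between 0.04 and 0.36 (mean 0.15), against a mean of −0.04 for the others. With the replicate block, *Gclc* in muscle at P1 against F22 passed (0.20, adjusted p = 0.047), the tissue difference of *Nqo1* at P1 against F22 was lost (0.71, adjusted p = 0.058), and no other member's call changed. The fit with 5 time points gives no value for P90 liver or F18 muscle. The calls lost in it had limma adjusted p between 0.0501 and 0.0661. In liver they were *Hmox1* at F22 against F20, *Gclm* at P1 against F22 and *Txnrd1* at P4 against P1. The others were *Slc7a11* in muscle at P4 against P1 and the tissue difference of *Nqo1* at P1 against F22. Signal over background was not analysed here, and the low level of *Slc7a11* in liver (percentile 16.0 of probe sets) limits the fold changes given for it there.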
